A study of Mus musculus with 18 samples.

Results

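Oxidative phosphorylation is the process by which mitochondria turn the energy of NADH and succinate into ATP. Complex I (NADH dehydrogenase) and complex II (succinate dehydrogenase, also an enzyme of the TCA cycle) pass electrons to ubiquinone, complex III passes them on to cytochrome c, and complex IV (cytochrome c oxidase) hands them to oxygen. Complexes I, III and IV pump protons, and complex V (ATP synthase) uses the proton gradient to make ATP. A few core subunits are encoded in mitochondrial DNA and all others in the nucleus, and in marrow the demand for these complexes differs between stem cells, maturing erythroid cells and granulocytes. The genes described here are the nuclear genes whose symbols begin with Nduf, Sdh, Uqcr, Cox or Atp5 and name a structural subunit of complexes I to V. Assembly factors with similar names were kept as a separate list. The rule gave 82 genes of the 18194 with a probeset of their own: 36 of complex I, 4 of complex II, 8 of complex III, 17 of complex IV and 17 of complex V. Membership rested on the symbols, while the probeset that stood for each gene was the brightest by its measured mean. The members were chosen with earlier results of these data known.

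They were measured in total RNA of bone marrow from 18 C57Bl6 mice, with 1 Affymetrix array per mouse. The groups were 4 wild-type (WT) mice, 4 CCAT2-G mice, 4 CCAT2-T mice and 6 CCAT2-GT mice. CCAT2 is a long non-coding RNA, and the transgenic mice were engineered to overexpress its G or its T form in every tissue. The labels do not say how the CCAT2-GT mice came to carry both letters. CCAT2-G and CCAT2-T mice, 8 in all, are also labelled DRAI- and the CCAT2-GT mice DRAI+. What DRAI stands for is not explained. The 3 transgenic genotypes share the overexpressed RNA and differ in its form. The sources used here give neither the age of the mice nor the promoter of the transgene. Each array is labelled a biological replicate, so the errors below describe the spread between mice. The comparisons ask whether subunit transcripts differ between transgenic and WT marrow, between the alleles and between DRAI+ and DRAI- mice. In whole marrow, fewer cells of a type and less RNA per cell cannot be told apart.

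Several features differed between the arrays and are given beside the values below. Their part in the subunit values was not tested. The interquartile range of the log2 values was under 3.1 on 5 arrays, called narrow here. They were replicates 1 and 2 of both CCAT2-T and WT and replicate 1 of CCAT2-G, and none came from a CCAT2-GT mouse. Marrow stroma, bone and endothelial markers were highest in CCAT2-GT replicates 4 and 6 and in WT replicate 4, called stroma-rich. The X-inactivation RNA Xist was high in CCAT2-GT replicates 2, 3 and 5 and in CCAT2-T replicate 3. The same mice had the Y-linked Eif2s3y at 2.14 to 2.32, against 6.96 or more in all others. By these transcripts they were female, and all WT and CCAT2-G mice were male. Sex was thus uneven between the genotypes. Erythroid markers (13 of 18 listed were tested) averaged 9.58 to 10.58 per mouse and neutrophil markers (13 of 14 listed) 11.62 to 12.39 on the log2 scale, so the lineages that make up marrow were present on every array. Array medians lay between 4.27 and 4.40. Precision is limited by the number of arrays.

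Of the 82 genes, 79 had a mean above the 30th percentile of probeset means (log2 3.30) and were tested. Ndufb4, an accessory subunit of complex I, averaged 2.86, the muscle isoform Cox7a1 averaged 2.76 and the testis isoform Cox7b2 averaged 2.47, and these 3 dim genes were not tested. A further 10 probesets that name a subunit together with another gene, such as those of Ndufa11 and Ndufs6, were not used. The tested members varied least over the 18 mice at Cox6a1 (SD 0.06), the complex IV subunit VIa of non-muscle tissues. They varied most at its muscle counterpart Cox6a2 (SD 0.43).

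Promoter sequences are shown first, because nuclear subunit genes are known for sharing binding motifs of NRF1, ETS factors (as bound by GABPA) and YY1. RefSeq promoters (GRCm38.p6, 250 bases before to 50 after the start site, the first listed for each gene) matched 67 of the 82 members. Each motif was searched on both strands. The NRF1 motif GCGCATGCG occurred in 7 of the 67 (10.4%) against 1.81% of all 27025 promoters, and the YY1 motif AAGATGGC in 8 (11.9%) against 2.88%. The ETS motif CCGGAAGT occurred in 5 (7.46%) against 4% and the Sp1 motif GGGCGG in 29 (43.3%) against 35.9%. The YY1 matches lay in complex I genes in 6 of the 8 cases (Ndufa3, Ndufa9, Ndufb8, Ndufc1, Ndufs4, Ndufs7) and in Atp5j2 and Atp5pb of complex V in the others. The NRF1 matches lay in Ndufa8, Uqcr11, Uqcrc1, Cox6a1, Atp5g2, Atp5k and Atp5l. These matches describe the letters and not binding. The windows below, each 80 bases long, upstream of the start site and written 5′ to 3′ on the minus strand, which is the strand of all 4 genes, show 3 of the NRF1 promoters with the match in capitals and, for contrast, Atp5g1, whose promoter held none of the 4 motifs. In Atp5g2 and Cox6a1 the motif and its reverse complement overlap, so the capitals run to 10 letters.
Atp5g2 (chr15:102671048-102671127): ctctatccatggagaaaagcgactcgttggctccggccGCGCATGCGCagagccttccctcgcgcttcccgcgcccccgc
Atp5g1 (chr11:96075695-96075774): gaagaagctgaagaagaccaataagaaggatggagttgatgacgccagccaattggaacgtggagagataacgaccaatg
Ndufa8 (chr2:36049339-36049418): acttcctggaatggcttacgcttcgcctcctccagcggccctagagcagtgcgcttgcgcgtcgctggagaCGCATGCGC
Cox6a1 (chr5:115349069-115349148): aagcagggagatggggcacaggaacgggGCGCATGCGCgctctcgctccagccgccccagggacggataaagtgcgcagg

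No subunit gene passed the adjusted threshold of 0.05 in any comparison (limma, Benjamini-Hochberg over 14505 genes), and neither did any other gene (0% of genes in all 7 tests). The descriptions that follow therefore give values, counts and unadjusted p-values. Counts from the main fits stand beside the share of all genes at an unadjusted p under 0.05. Most counts from fits that leave out mice or change the model have no such share. They therefore do not show whether a change concerns the members more than other genes. The smallest adjusted p of a member was 0.486, for Ndufa3 in DRAI+ against DRAI- mice. Over the 4 genotypes, the F test gave 4 of 79 members (5.06%) an unadjusted p under 0.05 against 4.89% of all genes. Those members were Ndufb1, Ndufc1, Sdhb and Atp5b.

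In CCAT2-T marrow most subunit genes lay below WT, and none passed the test. Of the 79 members, 67 lay below WT and 12 above, with a median difference of -0.18 on the log2 scale, while the median over all genes was 0.00 and 7187 of 14505 lay below WT. In this comparison 4 members had an unadjusted p under 0.05, all lower, against 1.41% of all genes that were lower at that level and 3.11% in either direction. The values were not alike across the complexes. Complex I had 31 of 35 members below WT (median -0.19), complex II 4 of 4 (-0.24), complex III 7 of 8 (-0.19) and complex V 16 of 17 (-0.20). Complex IV had 9 of 15 below and a median of -0.02, and whether it differs from the other complexes was not tested. Its 15 genes include tissue isoforms of low signal. Of these, Cox6a2 (mean log2 5.87), Cox4i2 (4.42) and Cox8b (4.15) lay above WT by 0.20, 0.16 and 0.18. The tissue isoform Cox6b2 (7.21) lay furthest below, at -0.32. The part of low signal in the complex IV count was not tested. In CCAT2-G marrow 44 members lay above and 35 below WT (median 0.01), and in CCAT2-GT marrow 60 lay above and 19 below (median 0.03). These 2 comparisons gave 0 and 1 members an unadjusted p under 0.05, against 1.57% and 2.6% of all genes. All 3 use the same WT mice.

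**Figure D1:**
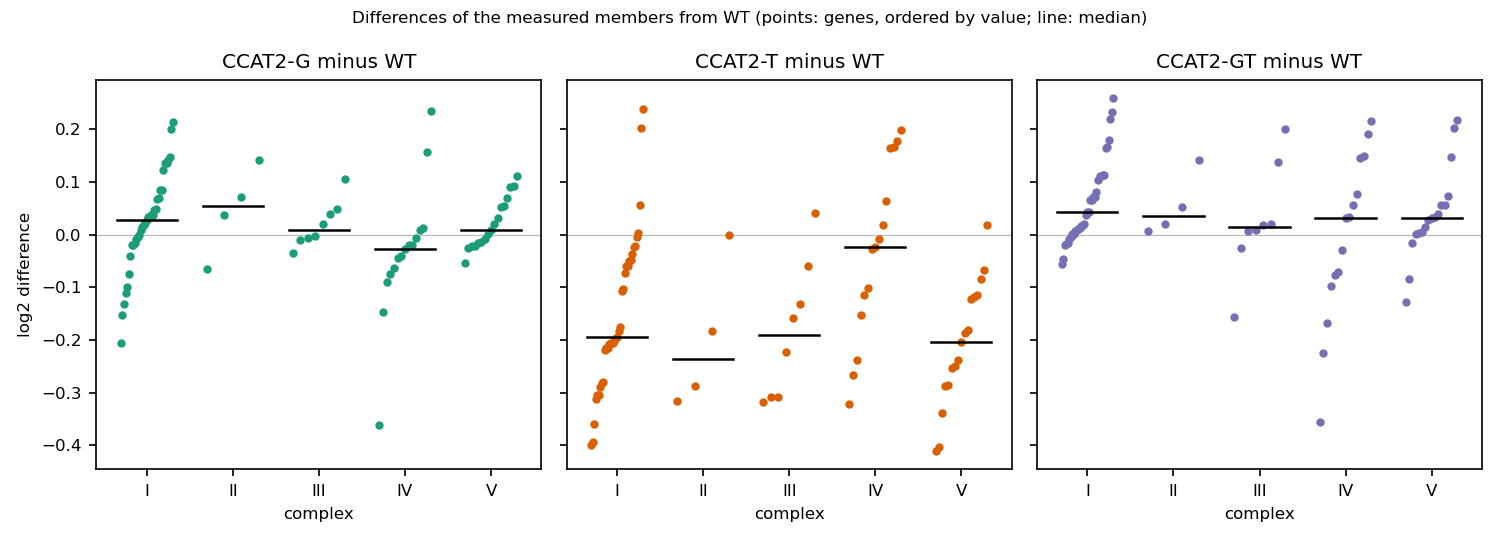
Log2 difference of each tested subunit gene from WT for CCAT2-G, CCAT2-T and CCAT2-GT mice (y axis) by complex (x axis), with genes ordered by value as points and the median as a line. In CCAT2-T mice the medians of complexes I, II, III and V lie between -0.24 and -0.19 and that of complex IV at -0.02. The complex IV points include low-signal tissue isoforms.

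The mice of the groups overlapped when taken singly. The median deviation of the 79 members from their WT means was -0.15, -0.11, -0.04 and 0.26 in the WT mice and -0.24, -0.25, -0.16 and 0.01 in the CCAT2-T mice, replicates 1 to 4. It was -0.29, 0.14, 0.15 and 0.05 in the CCAT2-G mice, and in the CCAT2-GT mice it ran from -0.12 over a median of -0.01 to 0.28. CCAT2-T replicate 4 thus lay among the WT mice, and WT replicate 4 stood above the other WT mice. The 5 narrow arrays held 4 of the 5 lowest values. Among narrow arrays alone, 64 of 79 members were lower in CCAT2-T than in WT mice (2 against 2, median -0.12, all genes -0.03). Among the wider arrays the count was 66 of 79 (2 against 2, median -0.20, all genes 0.03). Over all tested genes, the deviations of same-numbered CCAT2-T and WT mice from their group means correlated at 0.19 to 0.57. This pairing was taken from these data, and some mice of different numbers correlated as well. WT replicate 1 had r = 0.52 with CCAT2-T replicate 2 and 0.51 with CCAT2-T replicate 1. WT replicate 3 had r = 0.49 with CCAT2-T replicate 4. Within the 4 same-numbered pairs the median difference of the members was -0.09, -0.15, -0.13 and -0.23, with 56, 71, 52 and 69 of 79 lower. With the replicate number as a block, 7 members, all lower, had an unadjusted p under 0.05 (limma on all arrays). For all genes the share was 4.98% in either direction. With that block on the CCAT2-T and WT mice only, 19 of 79 had one, all lower, against 9.56% of all genes in either direction. None passed the adjusted threshold, and this fit was added after the data were seen. In the fit without the block and without WT replicate 4, the median difference between CCAT2-T and WT was -0.06 and no member had an unadjusted p under 0.05. Without CCAT2-T replicate 4 it was -0.24 with 17 such members, and without CCAT2-T replicate 1 none. The count was 1 without CCAT2-T replicate 3, 2 without WT replicate 3 and 8 without WT replicate 1. For the fits that left out a mouse the share of all genes is not given.

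**Figure D2:**
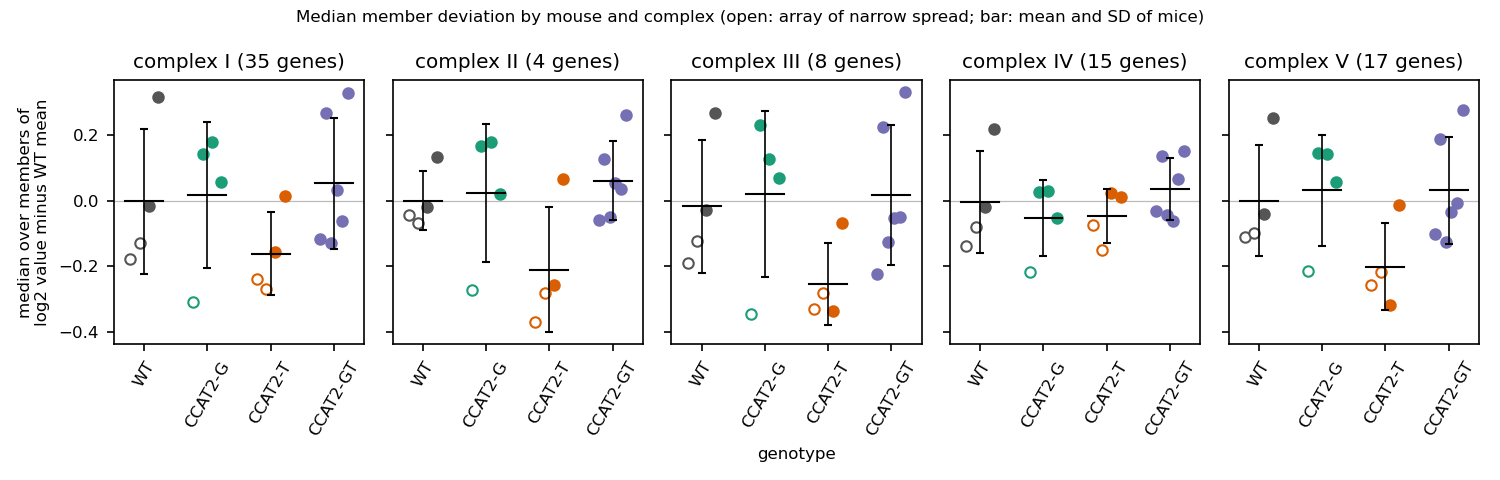
Median over the tested members of each complex of the log2 value minus its WT mean (y axis), 1 point per mouse, by genotype (x axis); open points are arrays of narrow spread and bars give the mean and SD of mice. In complexes I, II, III and V at least 3 of the 4 CCAT2-T mice lie below 0, and the complex IV values lie between -0.22 and 0.22.

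Marker levels were also compared between CCAT2-T and WT mice. No single marker of the lists named here had an unadjusted p under 0.05 (limma). The mean of the 8 tested megakaryocyte markers (of 10 listed) was 6.29 to 7.46 in CCAT2-T mice and 7.65 to 9.22 in WT mice. It was 7.64 to 9.03 in CCAT2-G mice and 6.53 to 10.79 in CCAT2-GT mice. Of 14 B-cell markers 14 were higher in CCAT2-T than in WT mice (median 0.25). Of 11 monocyte and macrophage markers 10 were lower (median -0.05). The mean of the 14 tested stroma, bone and endothelial markers (of 18 listed) was 4.42 to 5.95 in CCAT2-T and 4.80 to 6.82 in WT mice. Erythroid markers were at 10.05 to 10.36 against 10.22 to 10.46. The part of these differences in the subunit values was not tested.

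In complex I, the largest set, Ndufa10 had the smallest p between CCAT2-T and WT mice and Ndufb1 between CCAT2-G and CCAT2-T mice. Ndufa10, an accessory subunit of the membrane arm, was at 9.05, 9.04, 9.00 and 9.37 in WT mice and at 8.75, 8.84, 8.54 and 9.12 in CCAT2-T mice. Of the CCAT2-T mice, only replicate 4 reached the WT range. The difference was -0.30 (SE 0.14, unadjusted p = 0.0405, limma adjusted p = 0.928), and a second, dimmer probeset of Ndufa10 differed by 0.16 in the opposite direction. Ndufb1, a small membrane-arm subunit, was at 6.41, 6.63, 6.68 and 6.65 in WT, 6.45, 6.87, 6.95 and 6.95 in CCAT2-G and 6.11, 6.29, 6.23 and 6.62 in CCAT2-T mice. Replicates 2 to 4 of CCAT2-G lay above all 4 CCAT2-T mice, and CCAT2-G replicate 1 lay among them. CCAT2-G exceeded CCAT2-T by 0.49 (SE 0.15, unadjusted p = 0.0032, limma adjusted p = 0.743), and CCAT2-T lay 0.28 below WT with an unadjusted p of 0.07.

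Other complex I genes showed the range of behaviour. Ndufc1, a subunit of the membrane arm, averaged 9.05 ± 0.21 in WT (SD, n = 4), 9.19 ± 0.30 in CCAT2-G, 8.74 ± 0.22 in CCAT2-T and 9.28 ± 0.30 in CCAT2-GT mice (n = 6). Ndufab1, the mitochondrial acyl carrier protein that is also a complex I subunit, differed by 0.38 between CCAT2-G and CCAT2-T (SE 0.15, unadjusted p = 0.0224, limma adjusted p = 0.743). Its CCAT2-T values of 8.82, 8.91, 8.78 and 9.27 overlapped the CCAT2-G values of 9.01, 9.52, 9.27 and 9.51. The iron-sulfur subunit Ndufs1 averaged 7.98 ± 0.25 in WT and 7.81 ± 0.19 in CCAT2-T mice, and the NADH-binding Ndufv1 averaged 8.75 ± 0.49 and 8.55 ± 0.42. Ndufb7 lay above WT in CCAT2-T mice by 0.24 (SE 0.18) and the iron-sulfur subunit Ndufs7 by 0.20 (SE 0.15), with unadjusted limma p-values of 0.21 and 0.185. Their highest values, 10.71 and 9.52, both came from CCAT2-T replicate 3. Ndufa4, filed under complex I by its symbol and since assigned to complex IV, averaged 10.24 ± 0.38 in WT and 9.96 ± 0.19 in CCAT2-T mice.

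Complex II had the member with the smallest p against WT in CCAT2-T mice. Sdhb, the iron-sulfur subunit, was at 9.34, 9.36, 9.23 and 9.49 in WT, 9.18, 9.64, 9.61 and 9.56 in CCAT2-G and 8.96, 9.10, 8.82 and 9.27 in CCAT2-T mice. CCAT2-GT mice ran from 9.23 over a median of 9.31 to 9.64. Of the CCAT2-T mice, replicates 1 to 3 lay below every WT and every CCAT2-GT mouse, and replicate 4 lay within both. CCAT2-T was 0.32 below WT (SE 0.13, unadjusted p = 0.0257, limma adjusted p = 0.928) and 0.46 below CCAT2-G (SE 0.13, unadjusted p = 0.00242, limma adjusted p = 0.743). Leaving out each mouse in turn gave differences from WT between -0.39 and -0.24. These comparisons share the CCAT2-T mice. The flavoprotein Sdha averaged 9.51 ± 0.13 in WT and 9.33 ± 0.22 in CCAT2-T mice and the membrane anchor Sdhd 9.06 ± 0.27 and 8.77 ± 0.25. The other anchor, Sdhc, averaged 8.18 in both groups.

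In complex III, the core protein Uqcrc2 was at 9.17, 9.20, 9.31 and 9.58 in WT and 8.89, 9.05, 8.90 and 9.19 in CCAT2-T mice. Of the CCAT2-T mice, only replicate 4 reached into the WT range. The difference was -0.31 (SE 0.14, unadjusted p = 0.0426, limma adjusted p = 0.928), and its other bright probeset differed by -0.16. The Rieske iron-sulfur protein Uqcrfs1 averaged 9.41 ± 0.34 in WT and 9.09 ± 0.27 in CCAT2-T mice, and the core protein Uqcrc1 8.95 ± 0.27 and 8.72 ± 0.36. Uqcrh, the acidic hinge protein, was nearly level between WT and CCAT2-T mice at 10.34 ± 0.18 and 10.28 ± 0.07. Cyc1, the cytochrome c1 of complex III, whose symbol lies outside the naming rule, differed by -0.17 between CCAT2-T and WT (SE 0.15).

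Complex IV held the subunits with tissue isoforms, and they went different ways. Cox6b2, the testis-type form of subunit VIb, was at 7.42, 7.21, 7.47 and 7.84 in WT, 7.15, 7.45, 7.06 and 6.82 in CCAT2-G and 7.11, 7.33, 6.80 and 7.40 in CCAT2-T mice. CCAT2-GT mice ran from 6.65 over a median of 7.16 to 7.38. WT replicate 4 was the highest of the 18, and the other WT values overlapped those of each transgenic genotype. The means differed from WT by -0.36 in CCAT2-G (SE 0.18), -0.32 in CCAT2-T (SE 0.18) and -0.36 in CCAT2-GT mice (SE 0.17, unadjusted p = 0.0478, limma adjusted p = 1.00), all against the same WT mice. Its ubiquitous counterpart Cox6b1 averaged 10.94 ± 0.21, 10.90 ± 0.21, 10.83 ± 0.12 and 10.97 ± 0.22 in the same order of WT, CCAT2-G, CCAT2-T and CCAT2-GT. Without WT replicate 4 the Cox6b2 difference in CCAT2-GT mice was -0.24.

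Among the other pairs, the ubiquitous Cox4i1 averaged 11.08 ± 0.21 in WT and 10.97 ± 0.24 in CCAT2-T mice. Its hypoxia- and lung-associated isoform Cox4i2 lay at 4.23 to 4.37 in WT mice and at 4.29 or more in every transgenic mouse. Cox4i2 exceeded WT by 0.16 in CCAT2-G (SE 0.11), 0.16 in CCAT2-T (SE 0.11) and 0.19 in CCAT2-GT mice (SE 0.10, unadjusted p = 0.0791), at a low signal. Ndufa4l2, the hypoxia-induced relative of Ndufa4, averaged 5.25 ± 0.17 in WT and between 5.15 and 5.31 in the transgenic genotypes. Cox7a2, the non-muscle form of subunit VIIa, averaged 11.13 ± 0.27 in WT and 11.06 ± 0.26 in CCAT2-GT mice, and the supercomplex factor Cox7a2l 9.61 ± 0.31 and 9.44 ± 0.09. For both, WT replicate 4 was the highest of its group, at 11.54 and 10.07. Cox8c, a testis form of subunit VIII, averaged 6.63 ± 0.09 in WT and 6.69 ± 0.14 in CCAT2-GT mice.

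The muscle isoforms were compared with 14 tested skeletal muscle markers (of 19 listed), since muscle can adhere to flushed bones. The marker mean was 6.12 in WT replicate 4 and 6.06 in CCAT2-T replicate 1 and lay between 4.17 and 5.03 in the other mice. Cox8b, the muscle form of subunit VIII, was highest in CCAT2-T replicates 1 and 2 at 4.97 and 4.68 and WT replicate 4 at 4.58. Over 18 mice Cox8b and the markers had r = 0.65 and rho = 0.67 (permutation test, p = 0.00231 and 0.00289, adjusted over 4 such correlations 0.00924 and 0.0116). Without the 2 mice of highest marker mean, r was lower at 0.41, and its p was no longer under 0.05 (permutation p = 0.115). For Cox6a2 and the muscle markers r was 0.16 and rho 0.35 (permutation test, adjusted p = 0.708 and 0.303, r = 0.38 without the same mice). For Cox4i2 and 10 pericyte markers r was 0.16 and rho 0.30 (permutation test, adjusted p = 0.708 and 0.303). Without CCAT2-GT replicate 6 and WT replicate 4 that r was 0.23. For Ndufa4l2 and the pericyte markers r was -0.04 and rho -0.03 (permutation test, adjusted p = 0.878 and 0.896), and without the same mice r was 0.05.

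Complex V held Atp5o and Atp5b, the tested members furthest below WT in CCAT2-T mice. Atp5b, the catalytic beta subunit, was at 11.15, 11.13, 11.24 and 11.44 in WT and 10.74, 11.04, 10.31 and 11.28 in CCAT2-T mice. Replicates 1 to 3 of CCAT2-T lay below all WT mice and replicate 4 within them. The difference was -0.40 (SE 0.17, unadjusted p = 0.0311, limma adjusted p = 0.928), and it was -0.23 without CCAT2-T replicate 3 and -0.55 without CCAT2-T replicate 4. Atp5o, the stalk subunit OSCP that joins the catalytic head to the stator, was at 9.31, 9.38, 9.32 and 9.67 in WT and 9.16, 9.20, 8.32 and 9.35 in CCAT2-T mice, a difference of -0.41 (SE 0.21, unadjusted p = 0.0614). Its value in CCAT2-T replicate 3 was 0.77 below the next lowest of the 18 mice. The alpha subunit Atp5a1 averaged 10.89 ± 0.31 in WT, 10.60 ± 0.39 in CCAT2-T and 11.09 ± 0.22 in CCAT2-GT mice.

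Atp5g1, Atp5g2 and Atp5g3 encode the same mature c subunit of the membrane rotor behind different import sequences, and they differed in their values. Atp5g1 was at 8.06, 8.15, 8.39 and 8.53 in WT and 7.82, 8.02, 7.51 and 8.42 in CCAT2-T mice, a difference of -0.34 (SE 0.23). Atp5g2 was at 9.34, 9.44, 9.27 and 9.54 in WT and 9.14, 9.16, 9.08 and 9.47 in CCAT2-T mice, a difference of -0.19 (SE 0.12). Atp5g3 was at 11.13, 11.14, 11.20 and 11.27 in WT and 11.22, 11.13, 11.20 and 11.25 in CCAT2-T mice, a difference of 0.02 (SE 0.10). The CCAT2-T mice were thus mostly below WT at the first 2 genes and inside the WT range at the third, and the unadjusted p-values were 0.153, 0.154 and 0.868. Of the 3 promoters, the one of Atp5g2 held the NRF1 motif. The 7 members with an NRF1 match had a median CCAT2-T difference from WT of -0.18 and the 57 tested members with a promoter but no match -0.19.

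**Figure D3:**
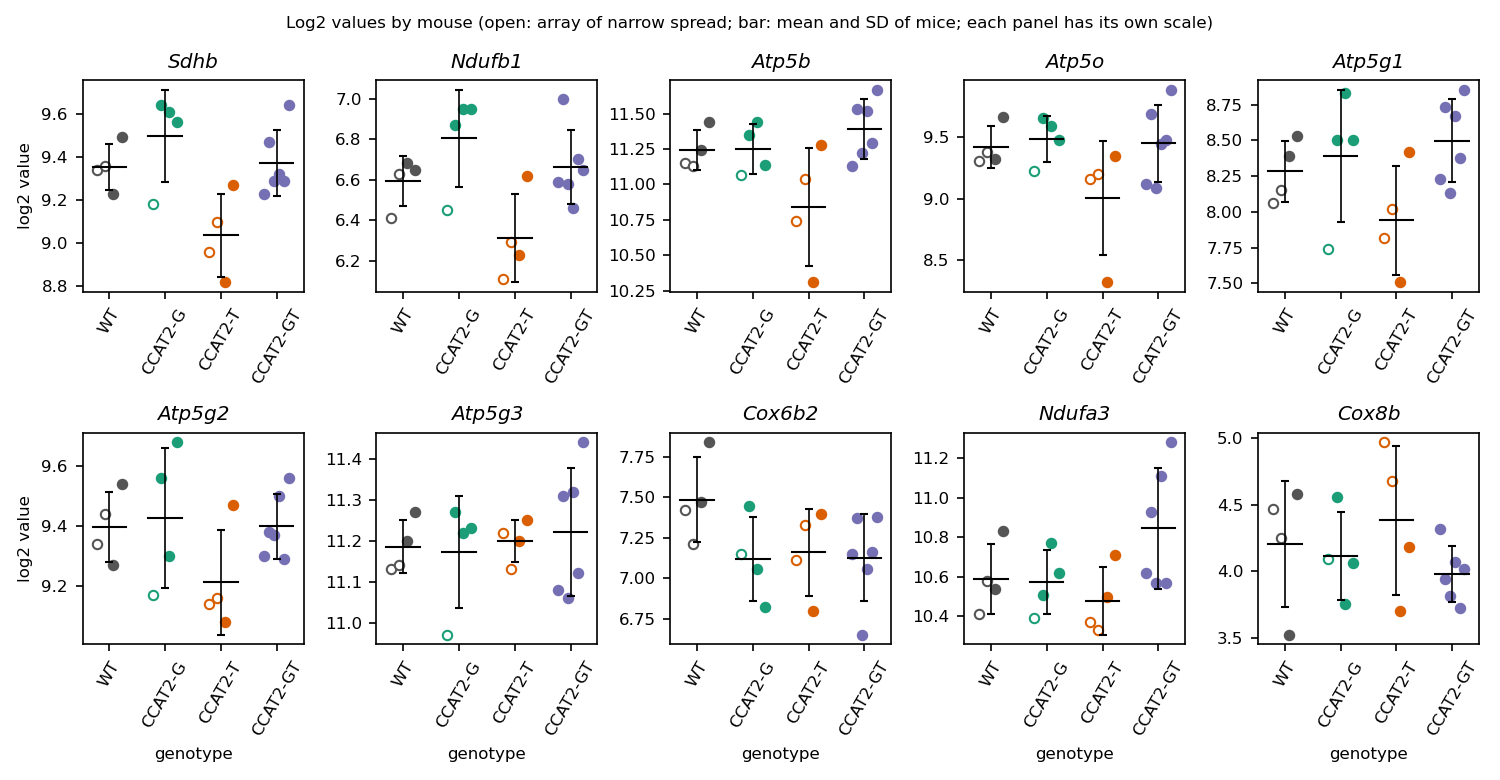
Log2 values (y axis, own scale per panel) of 10 subunit genes in each mouse by genotype (x axis), with open points for arrays of narrow spread and bars for the mean and SD of mice. In CCAT2-T mice Sdhb, Atp5b and Atp5o lie lowest in replicate 3 (8.82, 10.31 and 8.32), whereas Atp5g3 stays between 11.13 and 11.25.

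The alleles were then compared with each other, in the fit whose spread comes from all 18 mice. In CCAT2-G against CCAT2-T marrow, 64 of 79 members were higher and 15 lower, with a median difference of 0.15 (all genes 0.00, 7162 of 14505 higher). An unadjusted p under 0.05 was found for 14 members, all higher, against 4.21% of all genes that were higher at that level and 6.29% in either direction. Fitted on the CCAT2-G and CCAT2-T mice only, the count was 5, all higher, against 5.52% of all genes in either direction. By complex, 28 of 35 members of complex I (median 0.21), 4 of 4 of complex II (0.22), 8 of 8 of complex III (0.20) and 16 of 17 of complex V (0.23) were higher, and 8 of 15 of complex IV (0.00). The complex IV count again includes the low-signal tissue isoforms. Besides Sdhb, Ndufb1 and Ndufab1, the central-stalk epsilon subunit Atp5e differed by 0.30 (SE 0.12, unadjusted p = 0.0198). Atp5e was at 9.66, 9.97, 9.94 and 9.99 in CCAT2-G and 9.66, 9.61, 9.31 and 9.78 in CCAT2-T mice, where CCAT2-G replicate 1 was level with CCAT2-T replicate 1. Ndufb7 went the other way, at -0.37 (SE 0.18, unadjusted p = 0.0589).

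The number of members with an unadjusted p under 0.05 in the allele comparison changed with single mice. The share of all genes in these fits is not given. CCAT2-G replicate 1, on a narrow array, was low, and without it 28 members had an unadjusted p under 0.05. Without CCAT2-T replicate 3 the count was 2 and without CCAT2-G replicates 2, 3 or 4 it was 3, 6 and 5. It was 8 without CCAT2-T replicate 1 and 22 without replicate 4, and 2 without the Xist-high mice. Among the wider arrays 61 of 79 members were higher in CCAT2-G mice (3 against 2, median 0.18). Among the narrow arrays 52 of 79 were lower (1 against 2, median -0.05). Marker genes differed in the same comparison: 14 of 14 stroma, bone and endothelial markers (median 0.59) and 8 of 8 megakaryocyte markers (median 1.12) were higher in CCAT2-G mice, and 14 of 14 skeletal muscle markers were lower (median -0.38). Their part in the subunit values was not tested.

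In DRAI+ against DRAI- mice, 68 of 79 members were higher and 11 lower, with a median difference of 0.10 (all genes -0.01, 7010 of 14505 higher). An unadjusted p under 0.05 was found for 5 members, all higher (6.33%), against 3.84% of all genes that were higher at that level and 9.57% in either direction. Ndufa3, a small accessory subunit of complex I, ranged in DRAI- mice from 10.33 to 10.77 and in DRAI+ mice from 10.57 over a median of 10.78 to 11.28. The groups overlapped between 10.57 and 10.77. The difference was 0.32 (SE 0.12, unadjusted p = 0.0141, limma adjusted p = 0.486), and a second bright probeset of Ndufa3 gave 0.34. The same comparison gave 0.35 for Atp5b (SE 0.15, unadjusted p = 0.0299), 0.22 for the ubiquitous Cox8a (SE 0.10, unadjusted p = 0.0352) and 0.17 for Cox5b (SE 0.08, unadjusted p = 0.0448). Cox5a, another nuclear subunit of complex IV, differed by 0.18 (SE 0.10, unadjusted p = 0.0921).

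All 6 DRAI+ arrays were wide and 3 of the 8 DRAI- arrays were narrow. Among the wider arrays the DRAI+ median difference was 0.01, with 43 of 79 members higher (6 against 5), and no member had an unadjusted p under 0.05. The count was also 0 without CCAT2-GT replicate 6 and without the stroma-rich mice, 1 without CCAT2-GT replicate 2 or CCAT2-T replicate 1, and 2 without CCAT2-G replicate 1, CCAT2-T replicate 2 or CCAT2-GT replicate 4. It was 3 without WT replicate 3 or CCAT2-GT replicate 5, 8 without CCAT2-G replicate 2 or CCAT2-GT replicate 3, and 16 without CCAT2-G replicate 3. For these counts too, the share of all genes is not given. B-cell markers averaged 4.92 to 7.02 in DRAI+ mice against 5.25 to 8.30 in CCAT2-G and 6.75 to 7.99 in CCAT2-T mice, and 14 of 14 were lower in DRAI+ mice. Of 11 monocyte and macrophage markers all were higher (median 0.48), as were 8 of 8 megakaryocyte markers (median 0.85), and 14 of 14 skeletal muscle markers were lower (median -0.21). The part of these markers in the subunit values was not tested. In DRAI- against WT mice 66 of 79 members were lower (median -0.07), and 1, Cox6b2, had an unadjusted p under 0.05, against 1.36% of all genes. Without WT replicate 4 that median was 0.02.

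Single mice accounted for many of the extremes. CCAT2-GT replicate 6 held the highest of the 18 values for 30 members (38.0%, against 8.84% of all genes) and WT replicate 4 for 22 (27.8%, against 8.11%), both stroma-rich. The third stroma-rich mouse, CCAT2-GT replicate 4, held the highest for 4 members (5.06%, against 5.52%). CCAT2-G replicate 1 held the lowest for 25 (31.6%, against 7.74%). CCAT2-T replicate 3 held the lowest value for 21 members (26.6%, against 10.2% of all genes) and the highest for 4 (5.06%, against 8.77%). The SD of its member deviations was 0.34, and that of the other mice was at most 0.23.

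The low genes of CCAT2-T replicate 3 belonged to complex I in 12 cases, complex V in 7 and complexes II and III in 1 each. No gene filed under complex IV was among them, but Ndufa4, filed under complex I and since assigned to complex IV, was (9.83 against 9.84). The largest gaps to the next mouse were at Atp5o (8.32 against 9.09), the complex I subunit Ndufa7 (8.78 against 9.23), Atp5b (10.31 against 10.74) and the central-stalk gamma subunit Atp5c1 (9.82 against 10.22). The 4 high genes were Ndufb7, Ndufs7, Ndufb10 and Cox7c, with Ndufb7 at 10.71 against 10.34. That mouse was on a wider array and was the only CCAT2-T mouse with high Xist and low Eif2s3y, the pattern of a female.

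**Figure D4:**
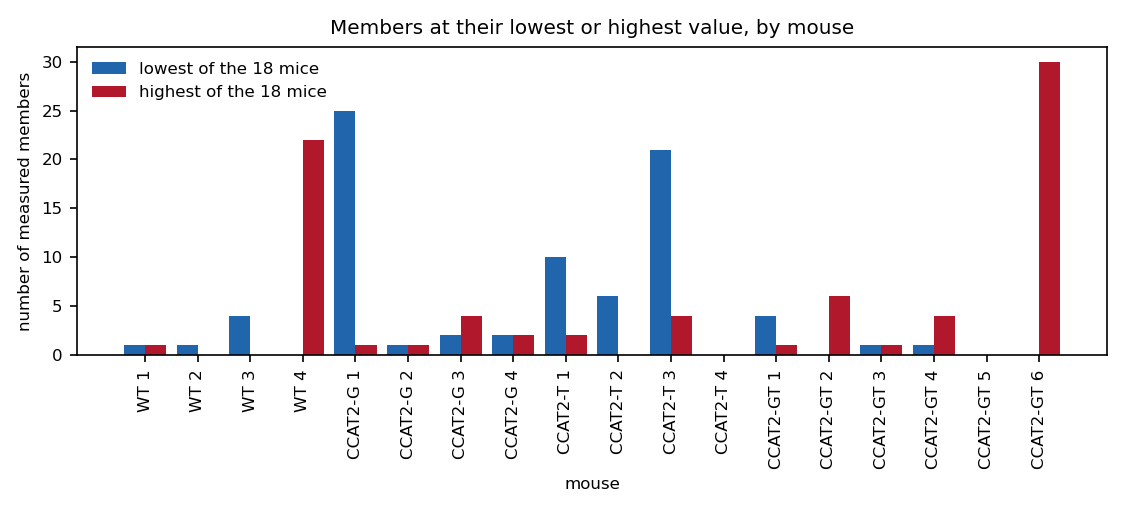
Number of the 79 tested subunit genes (y axis) for which each mouse (x axis) held the lowest or the highest of the 18 values. CCAT2-G replicate 1 and CCAT2-T replicate 3 held the lowest for 25 and 21 genes, and CCAT2-GT replicate 6 and WT replicate 4 the highest for 30 and 22.

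**Figure D5:**
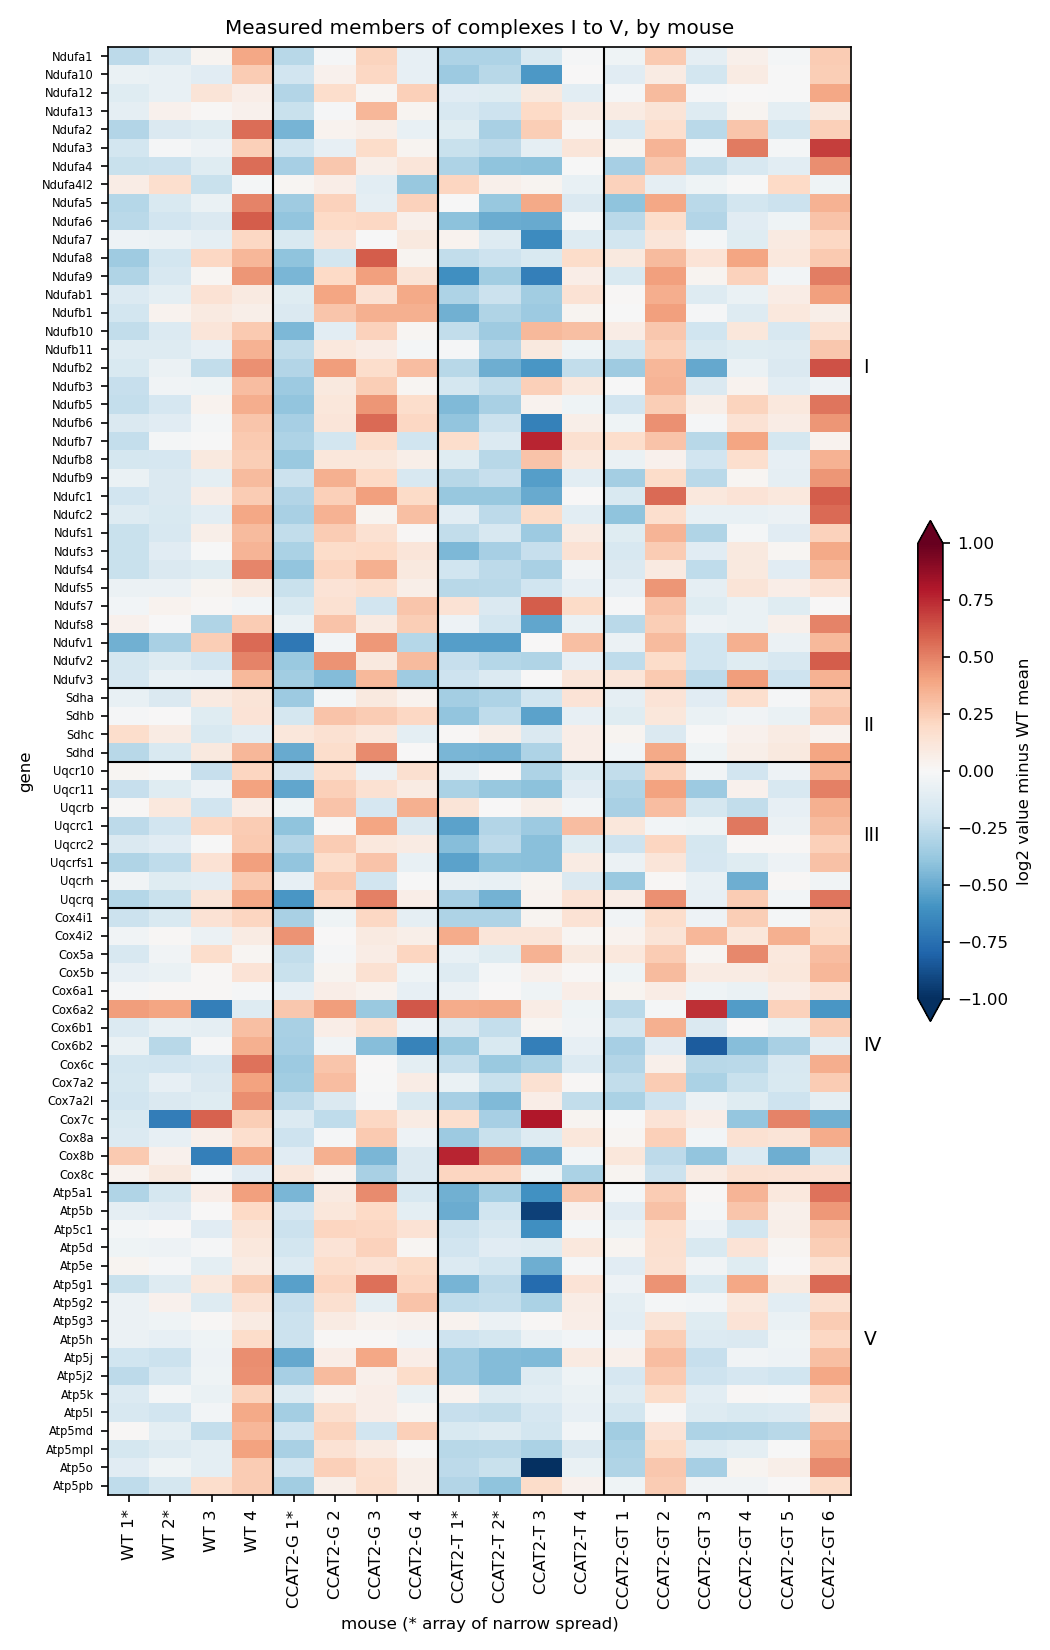
Log2 value minus the WT mean of every tested subunit gene (rows, by complex) in each mouse (columns, by genotype), with colours limited to the range from -1 to 1 and narrow arrays starred. CCAT2-T replicate 3 shows both deep blue (Atp5o, 8.32) and deep red (Ndufb7, 10.71) genes, and CCAT2-T replicate 4 lies close to WT.

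Neighbouring pathways were described in the same way. Of 44 tested assembly factors, which build the complexes without staying in them, 35 were lower in CCAT2-T than in WT mice (median -0.13) and 37 higher in CCAT2-G than in CCAT2-T (median 0.24). None passed the adjusted threshold. In the first comparison 3 had an unadjusted p under 0.05, all lower, against 1.41% of all genes lower at that level. In the second 10 were higher and 1 lower at that level, against 6.29% of all genes in either direction. Of 18 TCA cycle genes 15 were lower in CCAT2-T mice (median -0.15) and 14 higher in CCAT2-G than in CCAT2-T mice. Of 13 carriers of electrons and their synthesis genes, such as cytochrome c and the coenzyme Q enzymes, 8 were lower in CCAT2-T mice (median -0.10).

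Other lists were more even. Of 19 regulators of mitochondrial gene expression 8 were lower and 11 higher in CCAT2-T mice (median 0.01), and of 19 glycolysis genes 8 were lower and 11 higher (median 0.05). The genes with the smallest p in CCAT2-GT against WT among the regulators were Hif1a, the oxygen-sensing transcription factor, at 0.36 (SE 0.14, unadjusted p = 0.023), and Gabpb1, a subunit of the ETS-type factor, at -0.26 (SE 0.18). Among glycolysis genes they were Eno3, the muscle enolase, at -0.53 (SE 0.21, unadjusted p = 0.0208), and the phosphofructokinase Pfkp at 0.40 (SE 0.17, unadjusted p = 0.0301). Among assembly factors they were Pet100 at -0.18 (SE 0.12) and Cox18 at 0.22 (SE 0.14). In the TCA cycle list they were pyruvate carboxylase, Pcx, which feeds the cycle, at -0.25 (SE 0.13, unadjusted p = 0.0671), and Ogdh at 0.26 (SE 0.20), and among the carriers Coq5 at 0.24 (SE 0.14) and Coq2 at 0.15 (SE 0.13). Each of these genes had an adjusted p of 1.00 with limma. The 13 subunits encoded in mitochondrial DNA were not analysed here.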

How the data were processed

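The authors deposited log2 expression values for 45101 probesets on 18 Affymetrix arrays, normalized with RMA per the submitters' processing notes. Neither its version nor its probe definitions could be read from these sources, and the log2 scale was inferred from the range of the values (1.56 to 14.2). RMA includes quantile normalization, yet interquartile ranges differed between the deposited arrays (2.90 to 3.36). Genes were named through the platform annotation: 34958 probesets had 1 symbol, 932 several and 9211 none listed. The brightest probeset with 1 symbol stood for each gene, and 14505 genes with a mean above the 30th percentile (3.30) were tested. A linear model was fitted to all 18 arrays (limma 3.58.1 under R 4.3.3, with lmFit and a trended eBayes, two-sided), as 4 genotypes or as WT, DRAI- and DRAI+, with Benjamini-Hochberg adjustment over all genes. Signed differences are the first group minus the second. The procedure was tested on simulated data.

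The members, the gene lists and the rule for named genes were chosen with earlier results of these data known. Named were, in each comparison, the 4 members of smallest p in each direction, fixed core subunits and tissue isoforms, Cyc1, and the 2 genes of smallest p in CCAT2-GT against WT from each pathway list. Genes described for CCAT2-T replicate 3 (Atp5o, Ndufa7, Atp5c1, Ndufb10, Cox7c), Ndufc1 and Ndufa8 were picked after their values were seen. Correlations used 100000 resamples in a permutation test. Alternatives covered centring, filters, probeset averaging, variance models, array weights, blocks and leaving out mice. Same-numbered mice were checked for shared deviations from their group means over all tested genes. Of the 6 pairs of genotypes, only CCAT2-T and WT had every correlation over 0.1 (4 pairs, 0.19 to 0.57), so these mice were also compared by number. That pairing comes from the data, and the labels do not explain it. The main fit is unpaired, and the replicate number entered only alternative fits, as a block. Replicates 1 and 2 of both groups are also narrow arrays, so the number and the array spread cannot be told apart there. The block on these groups only was added after seeing the data.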

Additional observations from a re-analysis of the deposited data

Results flagged for a closer look

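Among 40 named genes and the mean over all tested members, each in the 4 genotypes, a single mouse stood apart from its group in 13 of 164 tests by Dixon's criterion, which chance meets in about 1 of 20. WT replicate 4, a stroma-rich mouse, was high for 5 genes of complexes I and IV. It was at 11.24 for Cox6b1 (next WT mouse 10.86), 11.54 for Cox7a2 (11.05), 10.07 for Cox7a2l (9.48), 9.37 for Ndufa10 (9.05) and 10.80 for Ndufa4 (10.12). CCAT2-G replicate 1, on a narrow array, was low for 4 genes: it was at 9.66 for Atp5e (next 9.94), 10.97 for Atp5g3 (11.22), 6.45 for Ndufb1 (6.87) and 9.18 for Sdhb (9.56). CCAT2-G replicate 3 was at 10.13 for Ndufv3 (next 9.46). CCAT2-GT replicate 2 was at 6.42 for Cox8c (next 6.66) and at 9.20 for Ndufs7 (8.92). CCAT2-GT replicate 1 was at 2.31 for Cox7a1 (next 2.71), a gene too dim to be tested. Narrow spread and stromal markers are measured beside these values, and their part was not tested.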

How the results depend on the processing

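With limma, 0 members passed the adjusted threshold in each of the 227 alternative fits of the 7 tests. With the replicate block, the unadjusted counts were 18 in CCAT2-G against CCAT2-T, 7 in CCAT2-T against WT and 1 in DRAI+ against DRAI- mice, and the median difference in CCAT2-T mice was -0.18. Over all genotypes, same-numbered mice correlated at a median of 0.09 (24 pairs, -0.36 to 0.67), and 6 of 18 mice correlated best with their own number. The replicate block changed no adjusted call. The median of CCAT2-T against WT stayed below 0 in all 34 alternatives (-0.24 to -0.06) and that of DRAI+ against DRAI- above 0 (0.01 to 0.15). With quantile normalization, which evens out the array spread, the median was -0.11 for CCAT2-T against WT (main fit -0.18). It was 0.10 for CCAT2-G against CCAT2-T (main 0.15) and 0.04 for DRAI+ against DRAI- (main 0.10). For CCAT2-GT and CCAT2-G against WT it was 0.004 and 0.02 (main 0.03 and 0.01). Within the narrow arrays, a comparison added after seeing the data, the median was -0.16 for CCAT2-G against WT and -0.048 for CCAT2-G against CCAT2-T, where 1 CCAT2-G mouse was left. With the mean of probesets, r of Ndufa4l2 with pericyte markers was 0.037. The small medians of CCAT2-GT and CCAT2-G against WT had the opposite sign in 5 and 8 of 33 alternatives. Array weights gave 36 members an unadjusted p under 0.05 in CCAT2-G against CCAT2-T, and the share of all genes in that fit is not given. Of 7638 alternative values for named genes, 514 changed sign. Of 80 further bright probesets of the members, 57 had the sign of the main probeset in CCAT2-T against WT.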
